A study of Homo sapiens with 12 samples.

Results

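The comparison described here is that of LX2 cells given the compound STINGX before TGFb with LX2 cells given TGFb alone. It takes 8 of the 12 libraries of the series, 4 in each group, chosen by their treatment labels, and covers all genes and single transcripts. LX2 is an established line of human hepatic stellate cells, wild type by its label. All cells were seeded for 24 h and then held without serum for 16 h. The TGFb group received TGFb at 5 ng/ml for 16 h. The STINGX group received STINGX, a code-named compound, at 10 µM for 3 h and then the same TGFb treatment. A control group of 4 untreated, serum-starved libraries gives the background level of each gene. No group received STINGX alone, so each difference below was measured in the presence of TGFb. Separate cultures are not stated for the 4 libraries of a group, and the p-values therefore reflect only how these libraries varied, which may be technical.

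Hepatic stellate cells store vitamin A in the resting liver and turn into matrix-producing myofibroblasts when TGFb activates SMAD transcription factors. STING is an endoplasmic reticulum adaptor that the DNA sensor cGAS switches on, and its signalling through TBK1 and IRF3 induces interferons and interferon-stimulated genes. The endoplasmic reticulum is also where collagens fold, and 3 sensors there (ERN1, EIF2AK3 and ATF6) raise chaperone and stress genes when unfolded proteins accumulate.

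Totals were 54035320 to 63193549 counts in the TGFb libraries and 58174812 to 70787741 in the STINGX libraries. Levels are in CPM, the counts scaled to a common library size, on which 1 count was worth 0.0135 to 0.0192 over all libraries. CPM values are scaled by TMM factors (edgeR's trimmed mean scaling), and means are given ± SD with n = 4. Mitochondrially encoded genes took 8.77 to 9.46% of the counts with TGFb and 8.16 to 8.46% with STINGX. The stellate markers VIM (2985 and 3006 CPM), THY1 (203 and 156 CPM) and TIMP1 (625 and 395 CPM) were present in both groups, while DES and LRAT had 0 counts in all libraries. Of markers of other liver cells, 4 of 17 hepatocyte genes were tested, 1 of them lower, and ALB, APOA2, APOB and TTR had 0 counts in both groups. Their summed level was 8.83 to 11.9 CPM with TGFb and 6.80 to 7.83 CPM with STINGX. Of endothelial genes 8 of 12 were tested (2 higher, 1 lower), with sums of 40.9 to 43.5 and 57.6 to 60.4 CPM and no count of LYVE1 or CLEC4G. Of macrophage and leukocyte genes 6 of 15 were tested (1 higher, 1 lower). Their sums were 32.4 to 38.3 and 77.9 to 93.3 CPM, most of it from CD68 (24.4 and 75.9 CPM), and CD3E, MS4A1 and AIF1 had no count. Of cholangiocyte and epithelial genes 6 of 10 were tested (1 higher, 5 lower), with sums of 435 to 522 and 240 to 255 CPM, mostly from KRT18 and KRT8, and no count of CFTR. The part of other cell types in the results below was not tested. In these bulk libraries, fewer cells of a kind and less RNA per cell cannot be told apart.

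The control elements of the genes that the comparison turns on are shown first, because they carry the letters that interferon-activated and unfolded-protein-activated factors are known to read. The sequences are the RefSeq promoters of GRCh38.p14, written 5′ to 3′ on the strand of the gene, over the 250 bases before the start. For IFIT1 (chr10:89392373-89392622, plus strand) the capitals mark the core of the interferon-stimulated response element, GAAANNGAAA on the opposite strand. It occurred 2 times, from 116 to 107 and from 103 to 94 bases before the start. For HSPA5 (chr9:125241344-125241593, minus strand) the capitals mark the endoplasmic reticulum stress element, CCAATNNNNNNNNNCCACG, from 66 to 48 bases before the start. This element holds the CCAAT box.
IFIT1: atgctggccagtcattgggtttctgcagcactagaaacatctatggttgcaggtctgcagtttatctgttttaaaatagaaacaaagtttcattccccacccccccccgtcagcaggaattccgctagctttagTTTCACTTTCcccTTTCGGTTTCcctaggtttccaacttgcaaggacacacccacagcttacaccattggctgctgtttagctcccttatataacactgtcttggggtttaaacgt
HSPA5: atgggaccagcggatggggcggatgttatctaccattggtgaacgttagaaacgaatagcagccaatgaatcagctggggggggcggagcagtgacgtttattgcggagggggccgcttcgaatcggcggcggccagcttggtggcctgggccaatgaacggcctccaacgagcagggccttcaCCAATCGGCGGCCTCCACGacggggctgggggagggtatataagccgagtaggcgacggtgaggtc

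Interferon-induced genes, matrix genes and mitotic genes were lower with STINGX, and chaperone and oxidative stress genes were higher, as was the collagenase gene MMP1. IFIT1, whose protein binds foreign RNA after interferon (ENSG00000185745, chromosome 10, 89392546 to 89406487), stood at 29.8, 33.3, 30.2 and 30.4 CPM with TGFb and at 1.58, 3.15, 1.76 and 2.30 CPM with STINGX. MMP1, the interstitial collagenase (ENSG00000196611, chromosome 11, 102789919 to 102798160), stood at 60.2, 65.9, 63.9 and 62.4 CPM with TGFb and at 1417, 1421, 1394 and 1395 CPM with STINGX. HSPA5, the endoplasmic reticulum chaperone BiP (ENSG00000044574, chromosome 9, 125234853 to 125241343), stood at 2217, 2143, 2110 and 2137 CPM with TGFb and at 6103, 6248, 6057 and 6072 CPM with STINGX. In each of these 3 genes every STINGX library lay beyond every TGFb library. IFIT1 fell 14.0-fold (log2 fold change -3.81 ± 0.16 SE, edgeR quasi-likelihood test with Benjamini-Hochberg adjustment over all genes, adjusted p = 1.99e-09). MMP1 rose 22.3-fold (4.48 ± 0.05, adjusted p = 3.36e-14) and HSPA5 rose 2.84-fold (1.51 ± 0.03, adjusted p = 4.44e-12). The control means were 25.1 ± 2.26 CPM for IFIT1, 546 ± 33.2 CPM for MMP1 and 1916 ± 68.1 CPM for HSPA5. MMP1 thus stood below control with TGFb and above it with STINGX, while IFIT1 and HSPA5 were closer to control with TGFb than with STINGX.

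**Figure D1:**
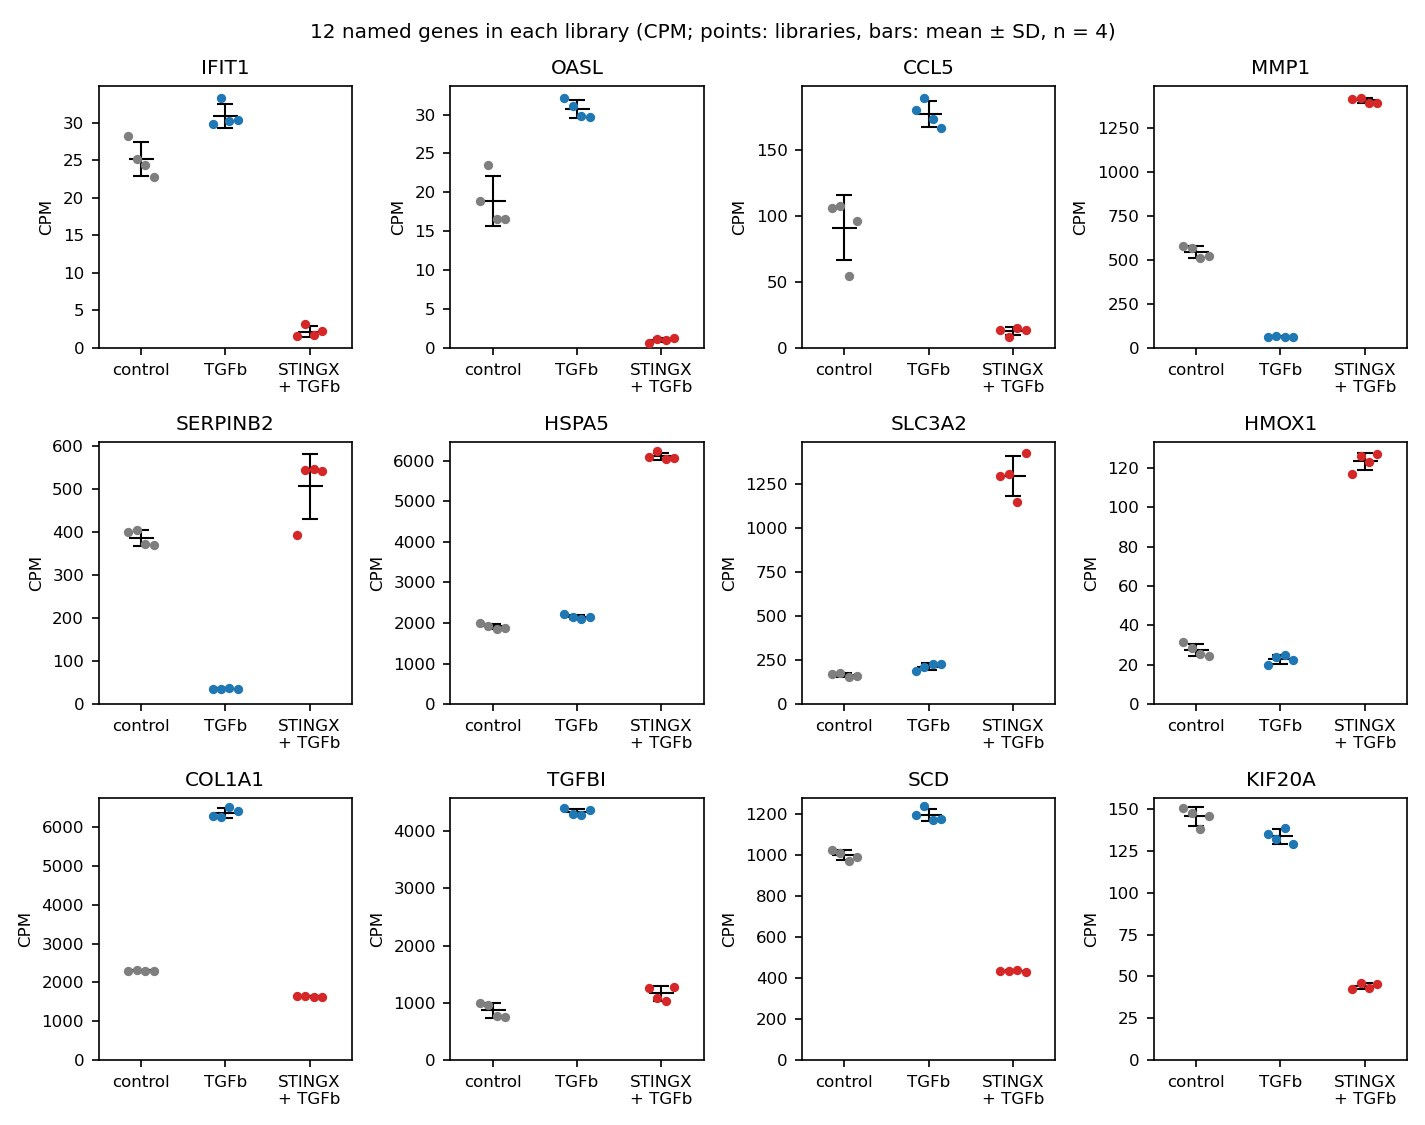
Level in CPM (vertical axes, from 0) of 12 named genes in control, TGFb and STINGX with TGFb libraries, with a point for each library and bars for the mean ± SD (n = 4). In each panel the 4 TGFb and the 4 STINGX libraries do not overlap, as in 31.6% of all tested genes. For CCL5 they stand at 166 to 189 CPM with TGFb and at 8.68 to 14.9 CPM with STINGX.

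Of 21328 genes tested, 2931 were higher (13.7%) and 2933 lower (13.8%), 27.5% in either direction. Changes were mostly small: 3162 of the called genes (53.9%) differed less than 1.5-fold, and a change of 4-fold or more was reached by 175 genes upward and 190 downward. The median log2 change over all tested genes was 0.01, with a 5th percentile of -1.11 and a 95th of 1.08. The balance of rises and falls rested on the scaling. With library totals in place of TMM the median moved to 0.15, and 4997 genes were higher and 1890 lower (4865 and 1905 on log2(FPKM + 0.1), 4918 and 1907 on log2(FPKM + 1)). Log2 changes below are on the TMM scale and are to be read against that shift of the median. The named genes are those with the largest changes by fixed limits of level, and the members of 35 gene lists that the roles below describe. The largest changes in fold were picked among genes whose groups did not overlap, which was so in 31.6% of all tested genes.

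**Figure D2:**
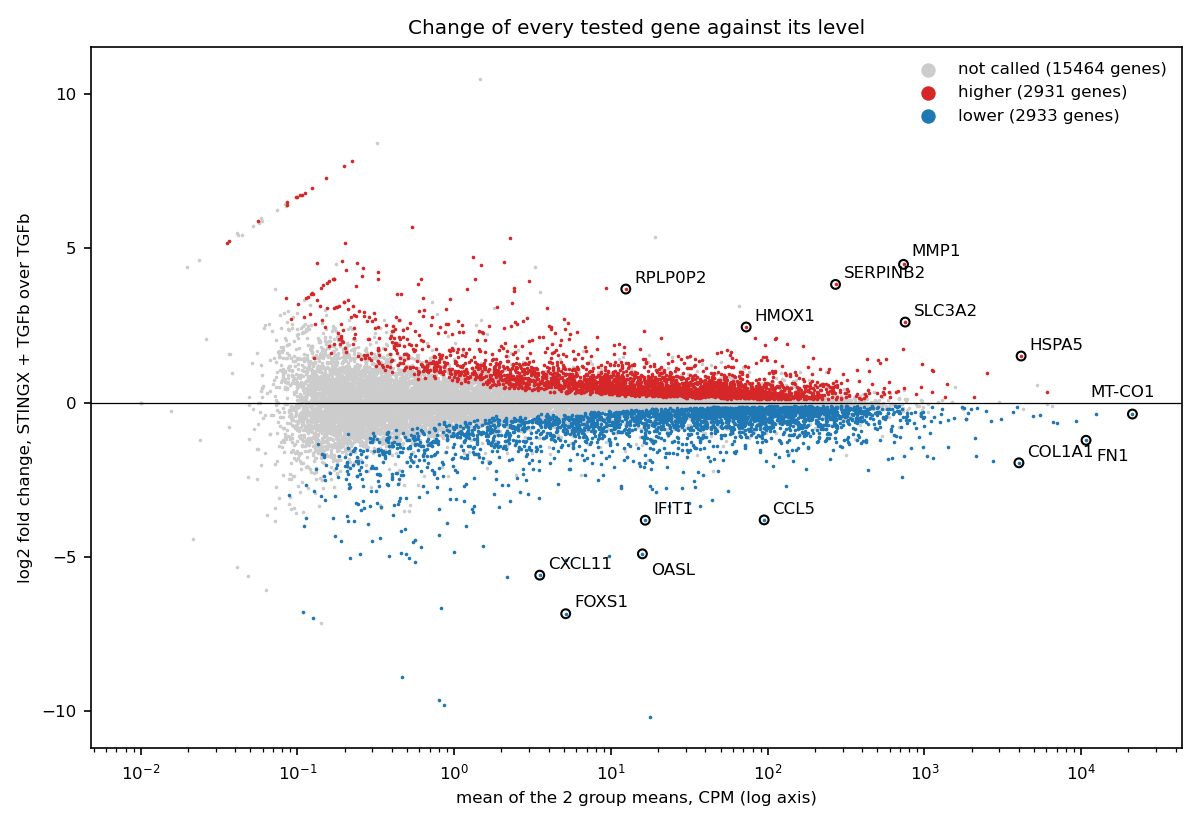
Log2 fold change of STINGX with TGFb over TGFb (vertical axis) against the mean of both group means in CPM (horizontal log axis) for the 21328 tested genes, a point each. MMP1 and SERPINB2 are the labelled genes with the largest rises (4.48 and 3.83), and FOXS1 at -6.84 is the labelled gene with the largest fall.

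Interferon-stimulated effector genes were lower across their roles. Of 42 tested, 39 fell and 0 rose, with a median log2 change of -1.62 against 0.01 over all genes, and -1.48 (37 lower, 1 higher) with library totals. All 4 RNA binders of the IFIT family and all 4 genes of the oligoadenylate synthetase family, which is known for making the activator of the antiviral ribonuclease RNase L, were among those that fell. OASL, a member of the synthetase family without that activity, stood at 32.1, 31.1, 29.8 and 29.7 CPM with TGFb and at 0.603, 1.16, 1.09 and 1.25 CPM with STINGX. This 30.0-fold fall (log2 fold change -4.90 ± 0.17, adjusted p = 5.44e-10) took it below its control level of 18.9 ± 3.25 CPM. The GTPase gene MX2 stood at 42.4, 41.9, 44.6 and 41.5 CPM with TGFb and at 3.74, 3.99, 4.11 and 4.91 CPM with STINGX, and IFI44 at 67.9, 70.6, 65.5 and 66.8 against 6.29, 5.64, 6.80 and 8.06 CPM. Neither gene's groups overlapped, and the log2 changes were -3.35 and -3.34. OAS2 (-3.24), the guanylate-binding protein gene GBP4 (-3.16) and IFI44L (-2.91) followed them in size. RSAD2, which encodes the antiviral enzyme viperin, had 0 counts in all 4 STINGX libraries and 0.934 ± 0.245 CPM with TGFb, so it was at least 86.2-fold lower when the STINGX group is set to a floor of 3 counts in all. The list median with RSAD2 at that bound was also -1.62. The RNA sensors IFIH1 (29.4 to 6.63 CPM) and DHX58 (31.9 to 11.6 CPM) fell too. The exceptions were IFI27 (adjusted p = 0.167), IFITM2 (0.163) and TRIM25 (log2 change 0.16, adjusted p = 0.0698).

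The chain above these effectors moved less. Of 20 tested genes of interferon signalling, 2 rose and 7 fell (median -0.15, and -0.00 with library totals). The ligand gene IFNB1 averaged 0.0362 CPM with TGFb and had no count with STINGX, too few for a test, and IFNL1, IFNL2 and IFNL3 had no count. Of 6 receptor chains, IFNGR2 of the interferon gamma receptor was lower (113 to 72.3 CPM), while IFNAR1 (119 and 123 CPM, adjusted p = 0.649) and IFNAR2 (38.0 and 40.7 CPM, 0.639) of the type I receptor did not pass. The transcription factors IRF1 (136 to 72.3 CPM) and IRF7 (23.0 to 11.8 CPM) fell, whereas their partners STAT2 (124 and 130 CPM) and IRF9 (34.4 and 23.3 CPM, adjusted p = 0.107) did not pass. USP18, an inhibitor of the type I receptor that interferon itself induces, fell 5.66-fold (14.0 ± 1.46 to 2.47 ± 0.353 CPM). The inhibitor SOCS3 rose (40.3 to 55.3 CPM), as did the kinase JAK2 (11.1 to 16.1 CPM).

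The STING pathway itself was changed in few of its genes. Of 24 tested components 4 rose and 4 fell, a share close to the background, with a median of -0.05 that became 0.09 with library totals (6 higher, 2 lower). STING1 stood at 78.4, 86.5, 84.7 and 78.7 CPM with TGFb and at 47.7, 48.8, 49.2 and 48.0 CPM with STINGX. Its groups did not overlap, and the fall was 0.76 on the log2 scale (± 0.09 SE, adjusted p = 2.51e-05). The sensor CGAS (26.6 and 27.2 CPM, adjusted p = 0.740), the kinase TBK1 (43.0 and 44.6 CPM, 0.508) and the factor IRF3 (54.3 and 53.7 CPM, 0.924) did not pass. STIM1, a calcium sensor of the endoplasmic reticulum that holds STING there, rose from 21.5 ± 0.566 to 26.7 ± 1.28 CPM, and the nucleotide hydrolase SAMHD1 fell (89.9 to 53.8 CPM).

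The response element core was searched on both strands of the same 250 bases. Of the 39 interferon-stimulated genes that fell, 30 had a RefSeq promoter entry and 19 of these (63.3%) held it, against 3.07% of all 27305 promoters. A match in each of 4 further genes that fell is given with 8 bases on each side, on the strand that reads GAAANNGAAA, which the capitals mark. They lay from 113 to 104 bases before the start in ISG15 (chr1:1013376-1013401, plus strand), from 18 to 9 in IFI44 (chr1:78649763-78649788, minus strand), from 122 to 113 in IFIT3 (chr10:89327867-89327892, minus strand) and from 50 to 41 in EPSTI1 (chr13:42992274-42992299, minus strand). A match describes these letters only and shows no binding.
ISG15: tgcctcggGAAAGGGAAAccgaaact
IFI44: agagaaagGAAACTGAAActcagtgt
IFIT3: ggaaactgGAAAGTGAAActaattta
EPSTI1: gattctgaGAAACCGAAActcagctg

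Antigen presentation genes followed the interferon effectors at smaller size. Of 18 tested genes of MHC class I and its peptide supply, 16 fell and 1 rose (median -0.47). All 12 genes of peptide loading and the immunoproteasome were lower, from -0.28 for PSMB10 to -1.32 for the peptide-loading bridge TAPBP (562 ± 14.4 to 226 ± 13.8 CPM). HLA-E, the ligand of inhibitory natural killer receptors, was the 1 that rose (332 to 405 CPM), while HLA-B (1257 to 577 CPM) fell. The light chain gene B2M stood at 1394, 1506, 1400 and 1388 CPM with TGFb and at 739, 503, 715 and 132 CPM with STINGX. The STINGX libraries were all lower but spread widely, and the log2 change was -1.45 (adjusted p = 0.0211). It was of like size but did not pass without STINGX replicate 2 (-1.43, adjusted p = 0.0548) or in a fit of the 8 libraries alone (-1.44, 0.0595).

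Chemokine genes moved in both directions, only partly along the receptor they serve. Of 7 tested ligands of CXCR3 and the CCR receptors, which draw T cells and monocytes, 5 fell and 0 rose (median -2.93). CCL5 stood at 180, 189, 173 and 166 CPM with TGFb and at 13.8, 8.68, 14.9 and 13.6 CPM with STINGX, a 13.9-fold fall (adjusted p = 3.38e-07). The monocyte attractant CCL2 stood at 236, 237, 216 and 223 against 36.1, 34.7, 33.4 and 37.2 CPM (log2 change -2.69). CXCL10 stood at 3.33, 4.20, 4.67 and 4.88 CPM with TGFb and at 0, 0, 0.130 and 0.219 CPM with STINGX. In all 3 genes the STINGX libraries lay far below the TGFb libraries. Of the 6 ligands of the neutrophil receptor CXCR2, by contrast, 4 rose and 2 fell (median 1.32). CXCL8 stood at 301, 319, 298 and 285 CPM with TGFb and at 733, 744, 733 and 748 CPM with STINGX (log2 change 1.30, adjusted p = 6.94e-11). CXCL5 (49.0 to 138 CPM), CXCL2 (21.1 to 54.8 CPM) and CXCL3 (13.8 to 34.9 CPM) rose with it, and CXCL1 (177 to 120 CPM) and CXCL6 (11.4 to 7.81 CPM) fell. Of 15 interleukins and other cytokines, 5 rose and 10 fell. IL1B, the secreted interleukin-1 beta, stood at 343, 352, 325 and 329 CPM with TGFb and at 1117, 1129, 1111 and 1138 CPM with STINGX, a 3.33-fold rise. IL11, a TGFb-induced cytokine, fell from 213 ± 9.89 to 74.5 ± 2.08 CPM and LIF from 194 to 94.4 CPM. Over all 28 chemokines and cytokines 9 rose and 17 fell (median -0.67).

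NF-kappaB genes were lower or did not pass, and most of those that fell were targets. Of 22 tested subunits, feedback genes and targets 0 rose and 10 fell (2 and 10 with library totals), with a median of -0.21. Of the 9 targets 6 fell (median -0.84), against 2 of 5 subunits (-0.25) and 2 of 8 feedback genes (-0.10). Over all tested genes 13.8% were lower, and the counts by role are too small to set the roles apart. The inhibitor NFKBIA (90.4 and 86.7 CPM, adjusted p = 0.462) and the feedback deubiquitinase TNFAIP3 (113 and 102 CPM, 0.125) did not pass. The adhesion receptor ICAM1 fell from 646 to 354 CPM and complement factor CFB from 89.9 to 42.9 CPM.

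**Figure D3:**
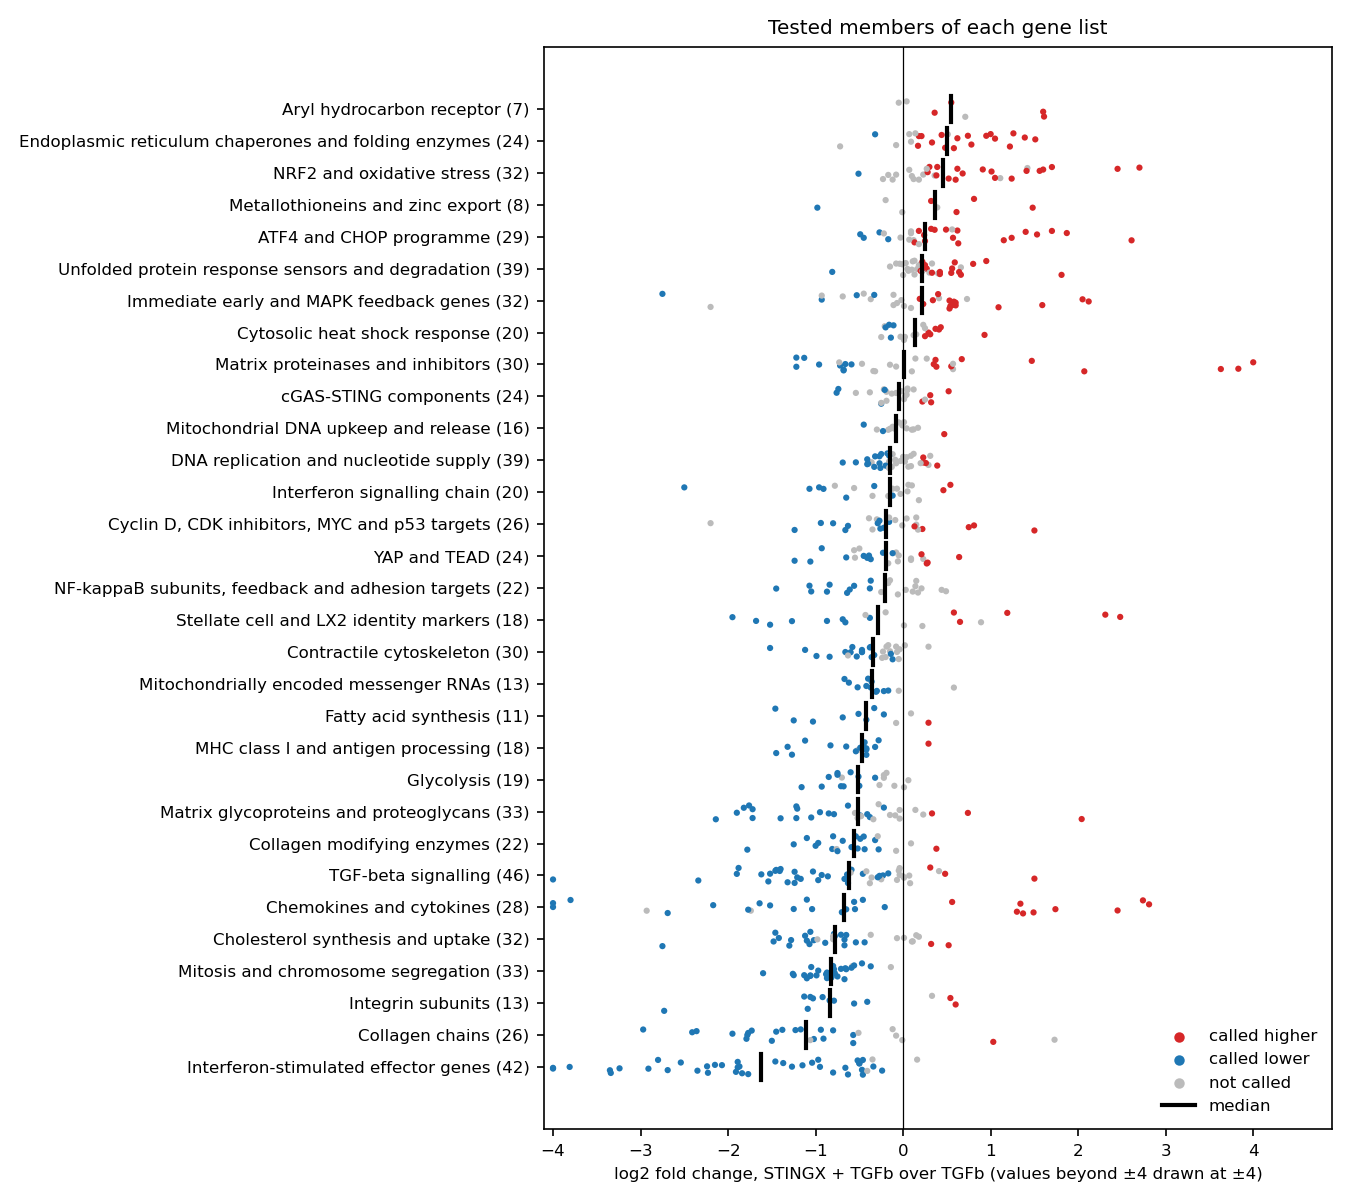
Log2 fold change of STINGX with TGFb over TGFb (horizontal axis) for each tested member (points) of the functional gene lists (vertical axis, with the number tested), with a black bar at each list's median. Medians run from -1.62 for interferon-stimulated effector genes to 0.55 for the 7 genes of the aryl hydrocarbon receptor list, and values beyond ±4, such as that of OASL, are drawn at ±4.

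Collagen chain genes were lower with few exceptions. Of 26 tested, 19 fell and 1 rose, with a median of -1.11 (-0.97 with library totals). All 8 fibrillar chains fell (median -1.37), as did 5 of 8 basement membrane chains. COL1A1, the main chain of type I collagen (ENSG00000108821, chromosome 17, 50184101 to 50201632), stood at 6282, 6253, 6509 and 6425 CPM with TGFb and at 1651, 1662, 1629 and 1634 CPM with STINGX. Its STINGX level lay below the control mean of 2307 ± 16.4 CPM. COL4A1, a chain of the basement membrane network, stood at 1201, 1245, 1191 and 1203 against 200, 246, 232 and 234 CPM, a 5.30-fold fall (adjusted p = 6.01e-10), with 261 ± 31.6 CPM in control. COL5A1 fell from 1749 ± 45.5 to 507 ± 12.5 CPM and COL6A3 from 959 ± 92.3 to 276 ± 13.6 CPM. COL3A1 fell from 351 ± 5.37 to 183 ± 5.39 CPM although TGFb had not raised it, with 584 CPM in control. The partners of COL6A3 in type VI collagen did not pass, COL6A1 at 690 and 635 CPM (adjusted p = 0.104) and COL6A2 at 678 and 642 CPM (0.294). COL4A6 was the 1 chain that rose (1.83 to 3.75 CPM).

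The enzymes that finish collagen and the other matrix proteins showed the same direction. Of 22 modifying enzymes 17 fell and 1 rose (median -0.56), and all 6 crosslinking enzymes fell (median -0.88), among them the lysyl oxidase gene LOXL4 (10.8 ± 0.871 to 3.16 ± 0.674 CPM). PPIB, a proline isomerase that assists collagen folding, was the 1 that rose (594 to 771 CPM). Of 33 tested matrix glycoproteins and proteoglycans 19 fell and 3 rose (median -0.52). FN1, fibronectin, stood at 15020, 14940, 15108 and 14965 CPM with TGFb and at 6543, 6363, 6453 and 6487 CPM with STINGX. This was the gene with the largest fall in mean CPM of all called genes, yet its STINGX libraries stayed above the control mean of 2102 ± 36.4 CPM. TGFBI, an adhesive TGFb target, stood at 4395, 4298, 4275 and 4374 against 1266, 1075, 1037 and 1271 CPM (log2 change -1.90). The elastic fibre protein FBLN2 (286 to 65.2 CPM), the thrombospondins THBS1 (916 to 260 CPM) and THBS2 (1137 to 346 CPM) and SPARC (1590 to 482 CPM) fell as well. SPP1, osteopontin (1.87 to 7.72 CPM), NID2 (31.8 to 53.1 CPM) and LAMB2 (258 to 324 CPM) rose. Of 13 integrin subunits, the receptors for these proteins, 10 fell and 2 rose (median -0.84), led by the collagen receptor chain ITGA11 (59.9 ± 3.37 to 9.04 ± 0.862 CPM).

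Matrix proteinases moved in both directions. Of 30 tested proteinases and inhibitors 10 rose and 9 fell (median 0.01). Beside MMP1, the stromelysin MMP3 rose from 0.356 ± 0.214 to 4.48 ± 1.07 CPM and the aggrecanase ADAMTS1 from 51.9 ± 2.34 to 144 ± 2.92 CPM, while the gelatinase MMP2 fell from 595 to 255 CPM. The inhibitors TIMP1 (625 to 395 CPM) and TIMP3 (220 to 113 CPM) fell. In the plasminogen system, SERPINB2, an inhibitor of urokinase, stood at 34.8, 35.3, 36.7 and 35.0 CPM with TGFb and at 392, 544, 546 and 541 CPM with STINGX. STINGX replicate 1 was the lowest of its group, and still every STINGX library was above every TGFb library (log2 change 3.83 ± 0.10, adjusted p = 4.34e-11). The control mean was 386 ± 18.1 CPM.

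TGFb pathway genes were lower at several levels of the pathway. Of 46 tested, 29 fell and 3 rose, with a median of -0.62 (26 and 5, median -0.47, with library totals). Among ligands and latent binding proteins 6 of 9 fell. TGFB1 stood at 501, 523, 518 and 539 CPM with TGFb and at 222, 228, 220 and 231 CPM with STINGX (log2 change -1.21, adjusted p = 5.52e-10), and the latent binding protein LTBP2 fell from 154 ± 5.31 to 41.9 ± 1.77 CPM. INHBA, the activin A chain, was at 133 CPM in both groups (adjusted p = 0.994). Of 6 receptors 2 fell, TGFBR1 (104 to 39.3 CPM) and the co-receptor ENG (266 ± 9.67 to 97.2 ± 3.25 CPM), and 2 rose, TGFBR3 (3.91 to 11.1 CPM) and ACVR1 (40.5 to 50.1 CPM). TGFBR2 did not pass (137 and 145 CPM, adjusted p = 0.0715). Of the SMADs, SMAD2 (107 and 103 CPM) and SMAD4 (106 in both groups) did not pass, and SMAD3 fell by 0.17 on the log2 scale (159 to 141 CPM). Of 10 feedback inhibitors 7 fell. PMEPA1 stood at 360, 411, 381 and 396 against 126, 140, 135 and 131 CPM, and SMAD7 fell from 108 to 59.3 CPM. Both stayed above their control means of 13.6 and 17.3 CPM. Of 16 target genes 12 fell and 0 rose (median -1.24). FOXS1, a forkhead factor, stood at 9.94, 11.3, 9.53 and 9.90 CPM with TGFb and at 0.110, 0.0541, 0.0650 and 0.117 CPM with STINGX, next to a control mean of 0.0551 CPM. CCN2, connective tissue growth factor, fell from 294 ± 3.35 to 124 ± 2.61 CPM, and the mesenchymal factors SNAI2 (47.3 and 46.1 CPM) and ZEB1 (32.4 and 42.9 CPM, adjusted p = 0.171) did not pass. Changes of TGFb over control use the same TGFb libraries as the comparison here, so the levels of the 3 groups are given side by side and no agreement between the comparisons was computed.

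Contractile genes changed less than the matrix. Of 30 tested 17 fell and 0 rose (median -0.34). ACTA2, the smooth muscle actin that marks activated stellate cells, stood at 43.0, 43.7, 48.1 and 45.0 CPM with TGFb and at 15.7, 15.0, 14.9 and 17.2 CPM with STINGX, a 2.86-fold fall (adjusted p = 9.34e-09) to below the control mean of 31.3 ± 2.50 CPM. TAGLN fell from 524 to 241 CPM, and the calponin gene CNN1 (17.6 and 15.4 CPM) and MYL6 (453 and 459 CPM) did not pass. Of 24 YAP and TEAD genes 4 rose and 10 fell (median -0.20), with CCN1 higher (499 to 604 CPM) and NUAK2 lower (31.2 to 14.9 CPM), and YAP1 (115 and 136 CPM, adjusted p = 0.526) did not pass. Of 18 stellate identity markers 5 rose and 8 fell. Those linked to the activated state fell in 7 of 9 cases and rose in 1, with PDGFRB, the platelet-derived growth factor receptor, at 169 ± 5.44 and 52.7 ± 2.34 CPM. Those linked to the resting state were mixed. Of 9 tested, 4 rose, 1 fell and the others did not pass, with log2 changes from -1.27 to 2.48. The ones that rose were the lipid droplet gene PLIN2 (20.7 ± 1.21 to 47.5 ± 0.649 CPM), RELN (1.22 to 6.80 CPM), the growth factor HGF (0.474 to 2.42 CPM) and NGFR (2.30 to 3.45 CPM).

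Chaperone genes of the endoplasmic reticulum rose. Of 24 tested chaperones and folding enzymes 17 rose and 1 fell, with a median of 0.50 (20 and 1, median 0.64, with library totals). Of the 13 chaperones and their partners 11 rose and 0 fell. HSP90B1, the HSP90 of this compartment, stood at 1700, 1696, 1807 and 1635 CPM with TGFb and at 3325, 3319, 3289 and 3274 CPM with STINGX (log2 change 0.95, adjusted p = 5.23e-10). HYOU1, which recharges HSPA5, stood at 569, 566, 562 and 563 against 1428, 1432, 1159 and 1409 CPM (1.26), and the co-chaperone DNAJB9 rose from 34.9 to 91.4 CPM. The disulfide isomerase PDIA4 stood at 738, 744, 709 and 700 CPM with TGFb and at 1487, 1517, 1435 and 1546 CPM with STINGX (1.05). CALR rose only from 1959 to 2203 CPM (0.17). ERO1A, an oxidase that hypoxia also induces, was the 1 that fell (214 to 171 CPM), and its paralog ERO1B rose (8.41 to 19.7 CPM). CANX did not pass (adjusted p = 0.0869). Its libraries took separate levels within a group, 1417, 1428, 924 and 1402 CPM with TGFb and 2341, 1365, 1383 and 2293 CPM with STINGX.

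Of 16 promoters of the chaperone and folding genes that rose, 5 (31.2%) held the stress element shown for HSPA5, against 0.0806% of all promoters. HSP90B1 held it 2 times, from 194 to 176 bases before the start on the plus strand (chr12:103930208-103930242) and from 89 to 71 on the minus strand (chr12:103930313-103930347). In CRELD2 it lay from 80 to 62 bases before the start (chr22:49918546-49918580, minus strand), and CALR and ERO1B held it as well. The windows are shown to compare the spacer between both ends of the element, and the capitals mark the match.
HSP90B1, first: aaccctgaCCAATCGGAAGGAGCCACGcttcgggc
HSP90B1, nearer: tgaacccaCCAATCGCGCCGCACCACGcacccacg
CRELD2: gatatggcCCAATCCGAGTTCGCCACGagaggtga

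The sensors and export genes of the unfolded protein response moved less than the chaperones. Of 39 tested genes 18 rose and 1 fell (median 0.22, and 28 and 1 with library totals). Of the sensors, ERN1 rose from 49.0 to 72.4 CPM and ATF6 from 73.5 to 88.8 CPM, and EIF2AK3 did not pass (38.9 and 44.7 CPM, adjusted p = 0.0558). Of 14 genes that dispose of misfolded proteins 8 rose and 0 fell, with DERL3 (5.33 ± 0.836 to 18.8 ± 1.21 CPM), HERPUD1 (87.6 to 169 CPM) and SEL1L (116 to 202 CPM) among them. Of 17 genes of translocation and exit 8 rose and 0 fell. CREB3L1, a stress-regulated factor that drives collagen transcription, was the 1 that fell (199 ± 6.19 to 113 ± 3.08 CPM). XBP1, whose messenger RNA ERN1 cuts to a shorter and active form, did not pass as a gene (89.7 and 98.4 CPM, adjusted p = 0.568). XBP1-202 lacks an internal run of 26 bases of XBP1-201 and also has shorter ends (1131 against 1850 bases). It took 42.1, 54.9, 45.8 and 55.1% of the gene's counts with TGFb and 70.3, 64, 66.4 and 66.4% with STINGX. The groups did not overlap, but the share did not pass the transcript test (adjusted p = 0.436), and it was picked after its values had been seen. XBP1-201 took only 3.76 and 0.608%. The rest was mainly XBP1-206, annotated as a retained intron (34.7 ± 21 and 9.92 ± 11.7%), and XBP1-204 (9.67 ± 19 and 21.8 ± 13.8%). The share of XBP1-202 is thus not a measure of the cut against the uncut form.

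Genes under ATF4 and CHOP, the factors of the integrated stress response, mostly rose. Of 29 tested 17 rose and 4 fell (median 0.25). ATF4 messenger RNA itself rose from 70.4 to 82.9 CPM (0.24), and DDIT3, which encodes CHOP, stood at 41.2, 35.8, 20.4 and 20.6 CPM with TGFb and at 84.0, 70.9, 120 and 66.3 CPM with STINGX (1.53, adjusted p = 0.00446). PPP1R15A, the phosphatase subunit that ends the response, stood at 229, 238, 236 and 237 against 616, 633, 608 and 630 CPM (1.40), and the pseudokinase gene TRIB3 rose 3.64-fold (41.5 ± 2.35 to 151 ± 4.37 CPM). SLC3A2, the heavy chain of several amino acid transporters, stood at 185, 209, 229 and 226 CPM with TGFb and at 1293, 1309, 1148 and 1425 CPM with STINGX, a 6.10-fold rise (adjusted p = 2.63e-10). Of its light chains the cystine transporter SLC7A11 rose (25.8 ± 1.59 to 84.0 ± 2.34 CPM) and the leucine transporter SLC7A5 fell (160 to 117 CPM). Asparagine synthetase ASNS (33.8 and 36.8 CPM, adjusted p = 0.418) and ATF3 (8.68 and 9.25 CPM, 0.873) did not pass. The composite element TGATGNAAT of C/EBP and ATF factors was in 0 of 14 promoters of the genes that rose and in 0.916% of all promoters.

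Oxidative stress genes of the NRF2 programme rose with them. Of 32 tested 18 rose and 1 fell, with a median of 0.46 (25 and 1, median 0.60, with library totals). HMOX1, heme oxygenase 1, stood at 19.9, 23.7, 24.9 and 22.2 CPM with TGFb and at 117, 126, 123 and 127 CPM with STINGX, a 5.45-fold rise (log2 change 2.45, adjusted p = 5.01e-10) from near its control level of 27.5 ± 3.08 CPM. The quinone reductase NQO1 (23.6 ± 4.11 to 71.6 ± 0.475 CPM), the ketone reductase AKR1C1 (1.35 to 8.67 CPM), thioredoxin reductase TXNRD1 (90.4 to 170 CPM) and the ferritin chain FTL (754 ± 49.7 to 1514 ± 33.4 CPM) rose too. The 5 regulators, NFE2L2 (which encodes NRF2), KEAP1, MAFG, MAFF and BACH1, had 0 called. MAFF stood at 16.0, 12.6, 74.6 and 75.3 CPM with TGFb and at 94.7, 97.0, 91.0 and 99.7 CPM with STINGX (adjusted p = 0.241), so that the TGFb libraries fell into a low and a high pair. The letters TGANNNGCA were in 1 of the 13 promoters found for the genes that rose (7.69%) and in 9.99% of all promoters. That promoter was of CHAC1, a gene that the ATF4 and CHOP list also holds. These letters are shorter than the antioxidant response element, which was not searched, so the count does not bear on that element. Of 20 cytosolic heat shock genes 7 rose and 4 fell (12 and 0 with library totals), with a median of 0.13. HSPA1A and HSPA1B rose to 369 and 365 CPM from 285 and 272 CPM, as near-identical copies whose reads could be shared. Of 8 metallothionein and zinc genes 4 rose and 1 fell (median 0.36). The zinc exporter SLC30A1 was among those that rose (16.2 to 45.3 CPM), and MT1X fell (21.8 to 11.1 CPM). The metal response core (TGCACNC or TGCGCNC) was in 1 of 2 promoters of those that rose (50%) and in 24.7% of all promoters. Of 7 aryl hydrocarbon receptor genes 4 rose and 0 fell, with CYP1A1 at 2.08 and 6.39 CPM.

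**Figure D4:**
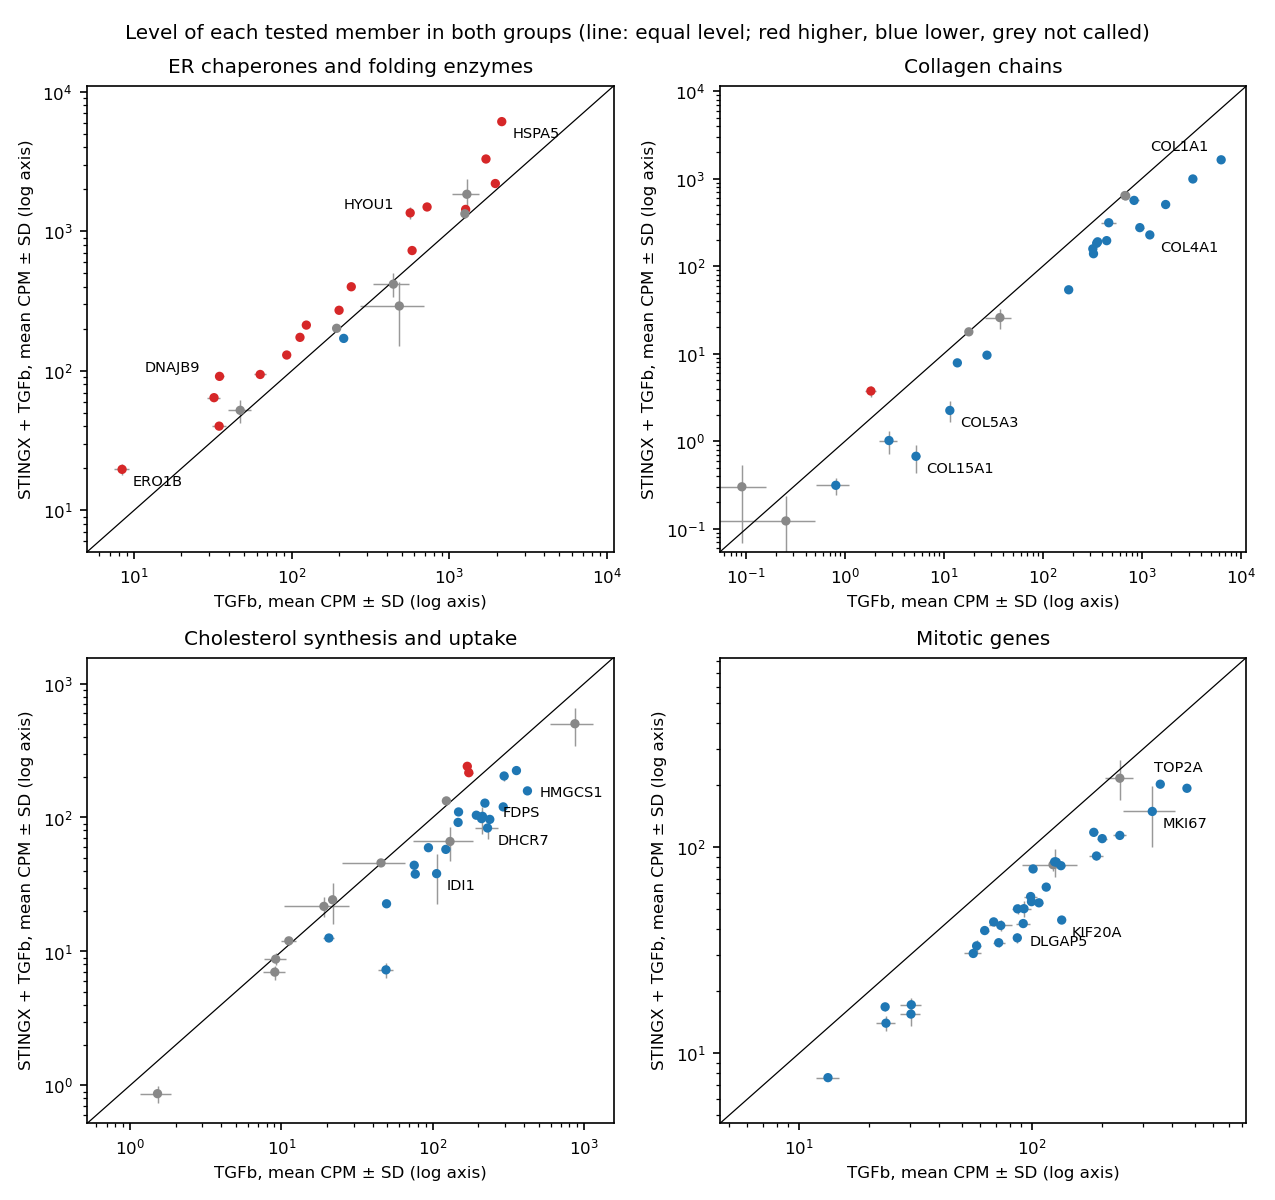
Mean level with STINGX and TGFb (vertical log axis, CPM ± SD) against that with TGFb (horizontal log axis, CPM ± SD) for each tested member of 4 lists, n = 4 libraries a group, with a line at equal levels and colours for higher, lower and not called genes. Most chaperone genes lie above the line, as HSPA5 at 6120 against 2152 CPM, and most collagen, cholesterol and mitotic genes lie below it, as COL4A1 at 228 against 1210 CPM.

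Genes of cholesterol synthesis, which the SREBP factors control, were lower. Of 32 tested genes of synthesis, uptake and efflux 20 fell and 2 rose, with a median of -0.78 (-0.64 with library totals). Of 20 synthesis enzymes 15 fell and 0 rose. HMGCS1, which commits carbon to the pathway, stood at 405, 424, 426 and 434 CPM with TGFb and at 156, 163, 156 and 156 CPM with STINGX (log2 change -1.42, adjusted p = 1.57e-10). FDPS, which makes farnesyl diphosphate, fell from 238 to 96.8 CPM. IDI1 stood at 110, 110, 107 and 98.6 against 44.8, 45.1, 15.0 and 47.7 CPM. The genes that rose were the efflux transporter ABCA1 (169 ± 10.7 to 241 ± 9.33 CPM) and the lysosomal exporter NPC1 (173 to 216 CPM). The factors SREBF1 (75.4 to 44.0 CPM) and SREBF2 (357 to 224 CPM) and their retention protein INSIG1 (210 to 98.1 CPM) fell. Of 11 fatty acid genes 8 fell and 1 rose (median -0.42), with the desaturase SCD at 1196, 1240, 1174 and 1177 CPM with TGFb and at 433, 436, 439 and 428 CPM with STINGX.

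Mitotic genes were lower nearly without exception. Of 33 tested 31 fell and 0 rose, with a median of -0.82, and the counts were the same with library totals (median -0.67). KIF20A, a kinesin of cytokinesis, stood at 135, 132, 139 and 129 CPM with TGFb and at 42.7, 46.0, 43.1 and 45.4 CPM with STINGX, a 3.02-fold fall (adjusted p = 6.59e-11). CCNB1, the mitotic cyclin, fell from 238 ± 15.1 to 114 ± 5.07 CPM, PLK1 from 91.6 ± 6.16 to 42.6 ± 0.491 CPM and topoisomerase TOP2A from 462 ± 6.50 to 193 ± 2.80 CPM. The factor FOXM1 (238 and 216 CPM) and the kinase AURKA (123 and 82.2 CPM, adjusted p = 0.186) were the members that did not pass. The control means were 146 ± 5.65 CPM for KIF20A, 100 ± 13.5 CPM for PLK1 and 254 ± 7.98 CPM for CCNB1. DNA replication genes moved less. Of 39 tested 14 fell and 4 rose (median -0.15), and with library totals the split turned to 7 lower and 10 higher. The helicase subunit MCM2 (291 and 285 CPM) and the licensing factor CDC6 (102 and 111 CPM) did not pass, and PCNA fell from 424 to 318 CPM. A CCAAT box was in 8 of 13 promoters of the replication genes that fell (61.5%) and in 33% of all promoters. Of 26 genes of cyclin D, CDK inhibitors, MYC and p53 targets 10 fell and 5 rose, which turned to 3 lower and 6 higher with library totals. MYC stood at 136, 11.7, 16.2 and 132 CPM with TGFb and at 18.6, 16.5, 15.4 and 13.8 CPM with STINGX. As 2 TGFb libraries lay below the STINGX libraries or among them, it did not pass (adjusted p = 0.0832).

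The cell cycle homology region TTTGAA, read by the complex that represses mitotic genes in resting cells, was in 15 of 27 promoters (55.6%) of the mitotic genes that fell and in 13.6% of all promoters. In several genes it lay close to the start. It ran from 29 to 24 bases before the start in PLK1 (chr16:23678852-23678873, plus strand) and CCNB2 (chr15:59105109-59105130, plus strand), and from 18 to 13 in CENPA (chr2:26786030-26786051, plus strand). The windows are shown to compare the bases around the match, which is in capitals.
PLK1: gcgccgcgTTTGAAttcgggga
CCNB2: acgcggtaTTTGAAtcctggaa
CENPA: gcgagcgaTTTGAAcgcgagcg

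Growth signalling genes moved apart. Of 32 immediate early and MAPK feedback genes and EGFR ligands 15 rose and 4 fell (median 0.21). The AP-1 subunit FOSL1 rose 2.13-fold (156 ± 9.41 to 333 ± 10.6 CPM) and JUN from 178 to 270 CPM, while JUNB (228 to 120 CPM) and EGR2 fell. EGR2 stood at 43.4, 38.4, 37.7 and 37.7 CPM with TGFb and at 6.65, 4.89, 6.36 and 5.47 CPM with STINGX, against 1.15 ± 0.280 CPM in control. Of 13 feedback genes 8 rose, and of 5 EGFR family ligands 3 rose, with NRG1 at 11.6 ± 3.47 and 34.6 ± 1.49 CPM. Of the 10 proteinase and inhibitor genes that rose, only 4 had a RefSeq promoter entry, and MMP1 was not among them. An AP-1 site (TGACTCA or TGAGTCA) was in 1 of these 4 promoters (25%) and in 4.16% of all promoters. Among further genes with large rises were RND3, a small GTPase (42.5 ± 3.60 to 184 ± 2.78 CPM), TMEM158 (31.2 ± 1.18 to 135 ± 4.26 CPM) and LURAP1L (5.47 ± 0.732 to 27.2 ± 1.39 CPM). The ribosomal protein pseudogene RPLP0P2 stood at 2.52, 1.78, 1.19 and 1.62 against 22.7, 21.5, 23.8 and 24.2 CPM, and could share reads with its parent gene.

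Mitochondrially encoded messenger RNAs were slightly lower. Of 13 tested 11 fell and 0 rose, with a median of -0.36 (9 and 0, median -0.22, with library totals). MT-CO1 stood at 23973, 24061, 23507 and 24015 CPM with TGFb and at 18479, 18842, 17967 and 18888 CPM with STINGX (log2 change -0.37), and MT-CO3 fell from 8661 ± 481 to 5431 ± 334 CPM (-0.67). The mitochondrial ribosomal RNA MT-RNR2 rose instead, from 5344 ± 182 to 6721 ± 106 CPM. MT-ATP6 did not pass (adjusted p = 0.429). It stood at 2733, 8990, 2435 and 2537 CPM with TGFb and at 6374, 6239, 6236 and 6057 CPM with STINGX, so that 1 TGFb library was above all STINGX libraries. Of 16 genes of mitochondrial DNA upkeep and release 1 rose and 2 fell (median -0.08, and 0.06 with 2 higher and 1 lower on library totals). These shares (6.25 and 12.5%) were no larger than those over all tested genes (13.7% higher and 13.8% lower). Of 19 glycolysis genes 11 fell and 0 rose (median -0.51), among them the glucose transporter SLC2A1 (110 to 68.8 CPM) and lactate dehydrogenase LDHA (807 to 425 CPM), while PKM (1219 and 1227 CPM) did not pass.

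Transcript use was tested apart from level. A transcript was called when its share of its gene's counts passed an adjusted p of 0.05 in limma's test and differed by at least 10 percentage points. Of 70802 transcripts tested in 12240 genes 51 were called (0.0720%), 32 with a gain and 19 with a loss, in 41 genes. Of these 41 genes, 8 were called higher in level, 13 lower and 20 not called. The share in the 4 STINGX libraries did not overlap that in the 4 TGFb libraries for any of the 51. The limits of the call favour such transcripts, so this is no separate support. Transcript counts are estimates that divide reads shared between transcripts, and the number called depended on the test: 930 by edgeR's diffSpliceDGE and 456 by limma's diffSplice, with 29 and 36 of the 51 among them.

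POLR1B, a core subunit of RNA polymerase I, changed its main transcript while the gene's level stayed near 50.7 and 53.1 CPM. POLR1B-202, annotated as a target of nonsense-mediated decay (chromosome 2, 112542189 to 112576299, 16 exons), took 0, 0.856, 0.0377 and 0.512% of the gene with TGFb and 74.4, 63.1, 65.1 and 59.3% with STINGX (adjusted p = 1.11e-05). The coding transcript POLR1B-201 lost the same part, from 98.5 ± 0.482 to 31.9 ± 8.37%. KIFC3-203, of a minus-end kinesin gene at 148 and 139 CPM, took 0.519, 0.333, 2.66 and 1.33% with TGFb and 59.5, 56.3, 54.9 and 58.8% with STINGX (adjusted p = 7.02e-09). Control shares were 0.665 ± 0.664% for POLR1B-202 and 0.375 ± 0.0895% for KIFC3-203, so for both the STINGX group was the one apart. For GPI-208 and SERPINB2-205 the TGFb group was the one apart. GPI-208, of the glycolytic isomerase GPI, took 2.73, 1.82, 0 and 0% with TGFb, 74.9, 51.0, 74.7 and 74.0% with STINGX (adjusted p = 0.0005) and 76.4 ± 1.60% in control. SERPINB2-205 took 0.527, 0.774, 0.938 and 0.220% with TGFb, 60.3, 57.3, 60.6 and 70.2% with STINGX (adjusted p = 0.00113) and 56.2 ± 11.0% in control. The starts of SERPINB2-205 and SERPINB2-201 lie 5 bases apart. NCOA7 moved between distant starts, 138063 bases apart. The long transcript NCOA7-202 rose from 32.5 ± 4.93 to 67.9 ± 7.24% and the short NCOA7-208 fell from 60.3 ± 2.80 to 23.2 ± 6.31%. Without TGFb replicate 4 the differences of NCOA7-202 and NCOA7-208 were 34.5 and -36.5 percentage points but did not pass (adjusted p = 0.0841 and 0.0507). NCOA7-202 also did not pass without TGFb replicate 2 or 3 or STINGX replicate 1, 3 or 4 (0.0612 to 0.0752). Among the other losses were AP1M1-202 (33.5 ± 2.08 to 7.70 ± 3.56%) and SRCAP-202 (96.5 ± 0.996 to 67.7 ± 6.50%). AP1M1-202 lost its call without any 1 TGFb replicate or without STINGX replicate 1 or 2 (adjusted p = 0.0543 to 0.0667), and it did not pass in diffSpliceDGE (0.278) or limma's diffSplice (0.918). SRCAP-202 did not pass in diffSpliceDGE (0.62).

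**Figure D5:**
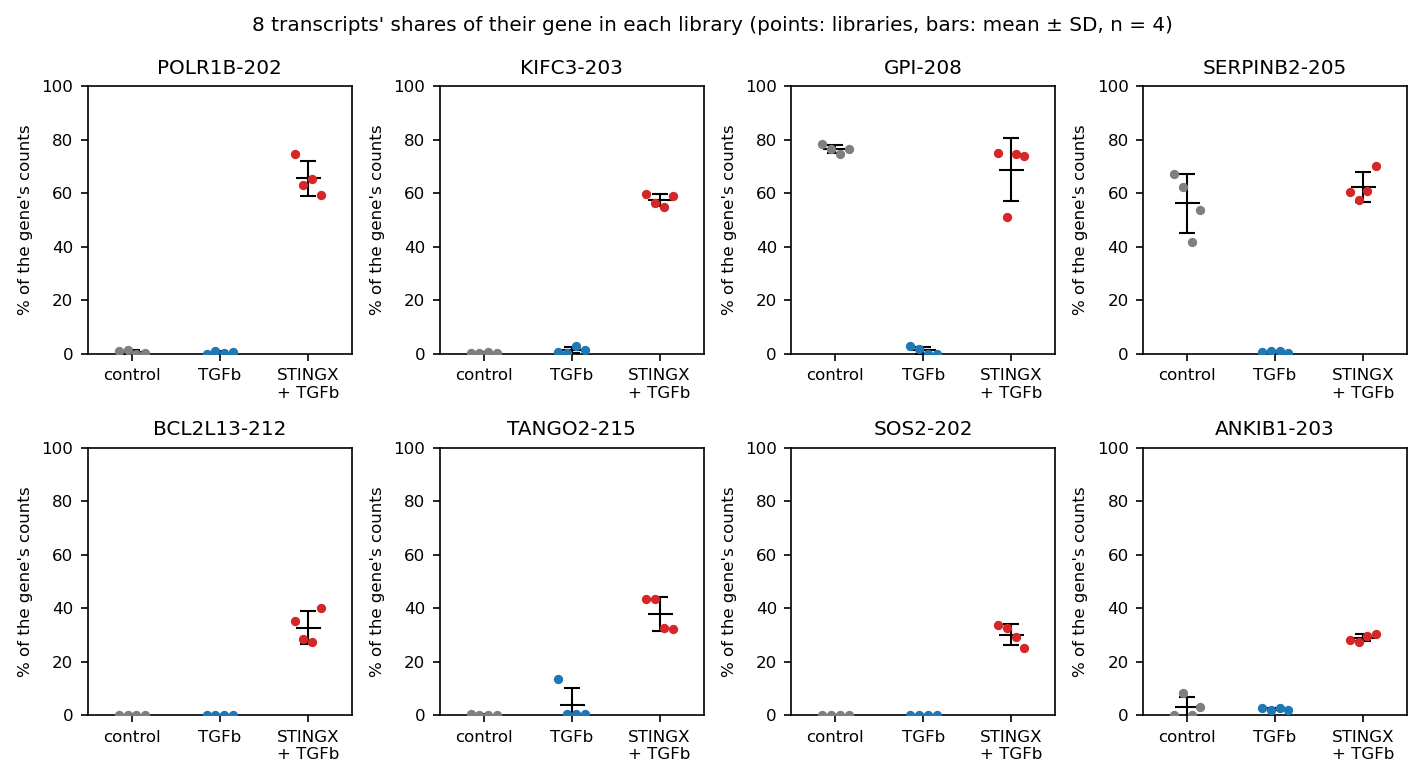
Share of the gene's transcript counts in percent (vertical axes, 0 to 100) taken by 8 transcripts in control, TGFb and STINGX with TGFb libraries, with a point for each library and bars for the mean ± SD (n = 4). For POLR1B-202 the STINGX libraries lie at 59.3 to 74.4% and the TGFb libraries at 0 to 0.856%, while for GPI-208 control and STINGX libraries are high and the TGFb libraries lie at 0 to 2.73%.

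Of the 32 gains 7 were of transcripts annotated as targets of nonsense-mediated decay, a surveillance route that degrades messages with an early stop, and of the 19 losses 0 were. Such transcripts made up 5774 of the 70802 tested. Beside POLR1B-202 they were BCL2L13-212 (0.0198 to 32.7%), TANGO2-215 (3.67 to 37.8%), ANKIB1-203 (2.23 to 28.9%), POLR2G-203 (8.76 to 25.2%), RNF181-204 (14.8 to 26.0%) and UQCRH-205 (13.9 to 25.1%). BCL2L13-212 and TANGO2-215 did not pass in limma's diffSplice (adjusted p = 0.0917 and 0.29). Over all genes, transcripts of this type took 2.46, 2.21, 2.21 and 2.42% of the transcript counts with TGFb and 3.01, 2.90, 2.66 and 2.77% with STINGX. The groups did not overlap, and the difference was 0.51 percentage points. This tally was chosen after its values had been seen, so the p-value of an exact permutation test run on it is not given. Shares of transcripts not in GENCODE 29 averaged 1.67 ± 0.0152% with TGFb and 1.88 ± 0.0748% with STINGX, and those of coding transcripts 84.1 ± 0.413 and 83.2 ± 0.154%.

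Some of these genes overlap others in the annotation, and whether the counting used the strand is not given in the sources used here, so their values may hold reads of the partner. On the opposite strand lie LIPA for IFIT1 and IFIT3, WTAPP1 for MMP1, COL4A2 for COL4A1, COL5A1-AS1 for COL5A1, TLDC2 for SAMHD1, CDC23 for KIF20A, FAS and ACTA2-AS1 for ACTA2, PCSK7 for TAGLN, NKILA for PMEPA1, CCDC97 and HNRNPUL1 for TGFB1, MARS1 for DDIT3, C12orf73 for HSP90B1, SMARCB1 for DERL3, ALG12 for CRELD2, SLC7A11-AS1 for SLC7A11 and LURAP1L-AS1 for LURAP1L. KRT8 and KRT18 overlap each other. On the same strand lie SERPINB10 for SERPINB2, C2 for CFB, HLA-C for HLA-B, IFITM1 for IFITM2, SLC35F6 for CENPA and MT-ATP6 for MT-CO3. HLA and metallothionein genes have close copies, and their values are uncertain for that reason.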

How the data were processed

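Polyadenylated RNA of LX2 cells was sequenced in 12 libraries with a strand-marking kit, per the labels' protocols. The authors deposited estimated counts per gene (60612 genes) and per transcript (229420), and FPKM values per gene. The submitters' processing notes name cutadapt, HISAT2, StringTie, edgeR and GRCh38. For versions, annotation and strand setting: not given in the sources used here. GENCODE 29 named 205306 of the transcripts.

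The deposited estimated counts were used as given and filtered with filterByExpr (minimum count 10, total 15). All 12 libraries were fitted together with TMM scaling and edgeR's quasi-likelihood test (R 4.3.3, edgeR 4.0.16), with Benjamini-Hochberg adjustment over all 21328 genes and a threshold of 0.05. Transcript shares were tested with limma 3.58.1 on percentages, with a minimum difference of 10 points. The planned diffSpliceDGE test made many false calls when checked on made-up counts and became an alternative. The limma test missed most of the changes in them, so a transcript that was not called is not shown to be unchanged. DESeq2 1.42.0, limma-voom, limma on log2(FPKM + 0.1) and log2(FPKM + 1), other scalings and filters, a replicate block and leaving out each library were alternatives.

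The genes named were IFIT1, MMP1 and HSPA5, the 8 largest rises and falls in fold (at least 20 CPM in the higher group, groups not overlapping) and in CPM, in each list 2 rises and 2 falls of at least 5 CPM, and members by role. Some genes that this rule names are not reported here. The transcripts named were the 8 largest gains and losses in genes of at least 10 CPM. The 35 lists hold 835 genes found by symbol, of which 780 were tested, and 1 name found no match. The members and lists were chosen with earlier results of these data known. A fold against a group at 0 used a floor of 3 counts, which covers counting error only. Motifs were searched on both strands of the 250 bases before the start in RefSeq promoters of GRCh38.p14.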

Additional observations from a re-analysis of the deposited data

Results flagged for a closer look

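A library stood apart from the other 3 of its group in 25 of 278 groups of 4 looked at, where chance gives about 1 in 20, or 14. This was judged by Dixon's 95% criterion for the gap to the nearest library over the whole range of the group. In a tight group such a gap can be small in level, as for RND3 with STINGX (182, 182, 188 and 183 CPM). In the STINGX group, SERPINB2 in replicate 1 (392 CPM), HYOU1 in replicate 3 (1159 CPM), IDI1 in replicate 3 (15.0 CPM), BAK1 in replicate 3 (49.0 CPM), COL15A1 in replicate 2 (0.325 CPM) and RND3 in replicate 3 (188 CPM) stood apart. So did SAMHD1 in replicate 4 (71.8 CPM), SLC7A5 in replicate 4 (121 CPM), CDKN2D in replicate 4 (1.65 CPM), ITGA6 in replicate 2 (60.1 CPM), LDHA in replicate 2 (443 CPM) and CYP1A1 in replicate 1 (7.28 CPM). In the TGFb group the libraries apart were replicate 2 for B2M (1506 CPM), NID2 (28.1 CPM), TKT (356 CPM), ELOVL6 (23.7 CPM), JUNB (241 CPM) and KRT18 (287 CPM). Others of that group were replicate 3 for MT-CO1 (23507 CPM) and COL15A1 (5.93 CPM), replicate 4 for ZDHHC15 (5.85 CPM) and replicate 1 for EGR2 (43.4 CPM). Of transcript shares, GPI-208 (51.0%) and NCOA7-202 (57.0%) were low in STINGX replicate 2, and TANGO2-215 (13.5%) was high in TGFb replicate 1.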

How the results depend on the processing

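Of the settings tried for all genes, none moved the total of 5864 called genes by over 1.5 times (5252 with no filter to 6887 with library totals, 6360 with DESeq2). The split did move, to 4997 higher and 1890 lower with library totals, 4865 and 1905 on log2(FPKM + 0.1), and 4918 and 1907 on log2(FPKM + 1). Leaving out 1 library gave 5056 to 5913 genes, 2487 to 2941 higher and 2548 to 2976 lower. The 51 transcripts became 930 with edgeR's diffSpliceDGE, 456 with limma's diffSplice and 32 at 20 percentage points or more, and 43 to 66 when 1 library was left out. The members changed more than these totals show. Of the 51, only 36 to 40 stayed called without 1 TGFb or STINGX library, and 43 to 45 without 1 control library. Among the named genes that lost their call in at least 1 setting were B2M, BAK1, CDKN2D, DNAJA1, HSPA4, PRIM1 and SERPINA1, and no named gene or transcript reversed. The split or median of some lists did turn: STING components, replication, cell cycle entry and mitochondrial DNA genes with library totals or FPKM, and matrix proteinases under several settings (9 higher and 11 lower, median -0.16, with a filter of 1 CPM). Among results for single transcripts 38 of the alternative values lost their call. The cause was not tested.

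The labels number the replicates alike in each group. With the replicate number as a block, 5647 genes and 33 transcripts were called, 29 of the latter among the 51. Deviations of libraries with the same number correlated at -0.009850, -0.006041, 0.036564 and 0.000460, so the numbers were not taken as pairs.

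Depth limits genes near 1 count, worth 0.0135 to 0.0192 CPM. All 8 libraries share a single cell line, and STINGX without TGFb was not analysed here.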
